A study of Homo sapiens with 10 samples.

Results

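The genes described here responded alike to knockdown of TEX10 and to knockdown of RELA (p65) in HCT116 cells, an established human colorectal cancer line. In one experiment 3 libraries of cells with an shRNA against TEX10 (TEX10_sh) were set against 3 of shNC cells (shNC1). In the other, 2 libraries with an shRNA against p65 (p65_sh) were set against 2 of shNC cells (shNC2). Lentiviral infection lasted 24 h in all 4 groups and puromycin selection 3 days, so both are common to knockdown and control cells. The average knockdown effect of a gene was the mean of its TEX10 effect (TEX10_sh minus shNC1) and its RELA effect (p65_sh minus shNC2), each on the log2 scale of CPM (reads of a gene scaled to a common library size) plus 0.5, with all 10 libraries scaled together. A gene was taken as shared when limma called its average effect at an adjusted p under 0.01, both effects had the same sign, the smaller effect was at least 0.5 of the larger, and their difference was not called at that threshold. After 52 genes that the study labelled in a heatmap of NF-κB signaling were set aside, 3436 of the 17922 genes tested (19.2%) were shared, 1655 of them higher and 1781 lower after both knockdowns.

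TEX10 is a nuclear protein of the complex around PELP1, SENP3 and LAS1L, which acts in maturation of the large ribosomal subunit. RELA is an NF-κB subunit that carries a strong transactivation domain, and it drives inflammatory, survival and feedback genes. Sterol synthesis is switched on by the SREBP factors when membranes lack cholesterol, mitosis genes are switched on late in the cell cycle by factors that bind the cell cycle homology region (CHR) and CCAAT elements, and interferon-stimulated genes are switched on through interferon response elements.

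The libraries held 28606464 to 44658105 reads, recovered from the deposited CPM values, and mitochondrial genes took 6.45% to 7.42% of the reads. The epithelial genes EPCAM, KRT8, KRT18, CDH1 and CDX2 were detected in each library, at 11.9 CPM or more. Of 24 markers of fibroblasts, endothelium and immune cells, 19 stayed under 1 CPM in every library and DCN and CD3E had 0 reads. The fibroblast marker COL1A1 was at 39.4 to 51.2 CPM over the libraries and the macrophage marker CD68 at 2.82 to 14.5 CPM. VWF and ITGAM reached at most 1.45 and 1.55 CPM, and PECAM1 had no value. The summed markers, mostly COL1A1, stood at 50.6 to 53.5 CPM in shNC1, 47.3 to 48.5 in TEX10_sh, 62.7 to 65.5 in shNC2 and 58.7 to 64.99 in p65_sh. The experiments carry separate series of library numbers in the labels, so levels were compared within an experiment only. Both control groups are labelled shNC, and a feature of shNC cells would enter both comparisons and cannot be told apart from a response common to the knockdowns. Whether replicates are separate cultures is not given in the sources used here, and p-values then cover only variation among these libraries, which may be technical.

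TEX10 mRNA was at 74.4, 72.3 and 70.3 CPM in shNC1 and at 30.9, 32.03 and 31.9 CPM in TEX10_sh, a TEX10 effect of -1.18 with no overlap of groups. RELA mRNA was at 92.7 and 104 CPM in shNC2 and at 30.1 and 31.5 CPM in p65_sh, a RELA effect of -1.66. The other target moved less. RELA was lower by a log2 effect of -0.24 in TEX10_sh, whereas TEX10 stood at 0.14 in p65_sh.

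The average effect was called for 7464 genes, 41.6% of those tested, with 3631 higher (20.3%) and 3833 lower (21.4%). The effects had the same sign in 6619 of these (88.7%), against 63.9% of all genes tested. Opposite effects cancel in the average, so a call on it favors the same sign and this gap is in part built in. Of the 6619, 3045 had a smaller effect under 0.5 of the larger one and 112 passed that ratio but differed between experiments. The rule fixes what remains, at 9.23% of all genes tested for shared rises and 10.1% for shared falls with the labelled genes included. The shared changes were modest in size. The median average effect was 0.27 among the rises and -0.33 among the falls, and 123 rises and 233 falls reached 1.5-fold. In its own comparison the TEX10 effect was called higher for 19.9% and lower for 18.8% of all genes tested, and the RELA effect for 13.4% and 16.2%. Both were called for 966 of the shared rises and 1079 of the shared falls, and neither was called for 215 rises and 251 falls. Knockdown and control libraries did not overlap in either experiment for 1566 of the rises and 1690 of the falls, where 15.1% and 16.4% of all genes tested did so. The rule selects on the same library values, so this separation is in large part built in as well. At the edge of the ratio, NLGN2 lay just inside at 0.5001 and HAGH just outside at 0.4998. Calls on the average in genes such as CDKN1A, with a TEX10 effect of 1.76 and a RELA effect of 0.37, are therefore outside the shared set.

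**Figure D1:**
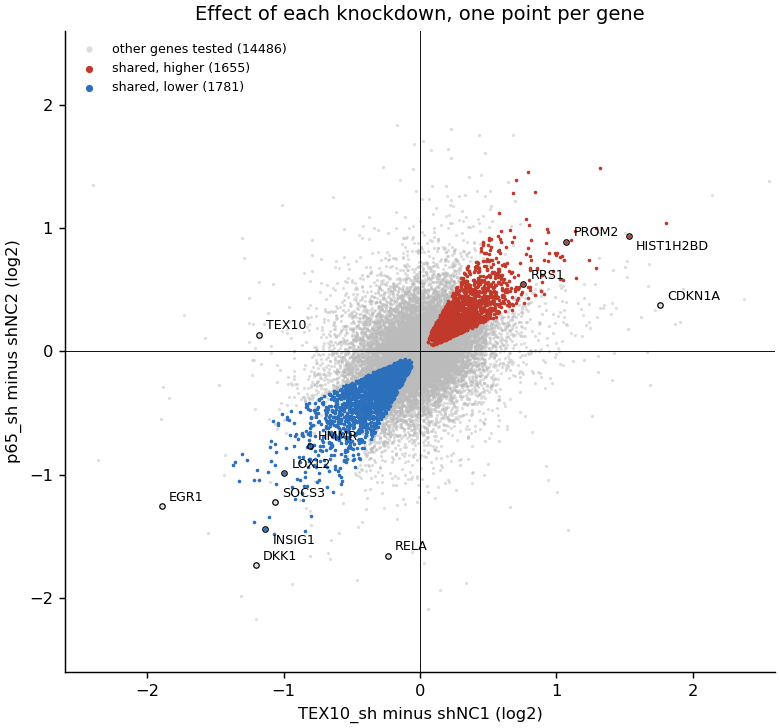
Each point is 1 of 17922 genes tested, with its TEX10 effect on the horizontal axis and its RELA effect on the vertical axis (log2). The 1655 shared rises (red) and 1781 shared falls (blue) form wedges around the diagonal because the rule asks for a ratio of at least 0.5, and 4 genes lie outside the axes.

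Type and length of the shared genes were close to those of other called genes, whereas their median level was lower. Protein-coding genes made up 92.7% of the shared rises and 91.1% of the shared falls that matched the annotation, against 80.6% of all genes tested, and 92.5% and 94.9% of the rises and falls that were called on average without being shared. Median exonic length was 4690 bases for the shared rises, 5546 for the shared falls and 4307 for all genes tested, and 4824 and 5574 for the called rises and falls that were not shared. Median expression was 34.4, 25.1, 17.0, 42.8 and 38.6 CPM in the same order. Being called depends on the level, so these values only describe the genes.

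The genes proposed as marks of the shared response were EGR1, DKK1 and SOCS3. SOCS3, a feedback inhibitor of STAT3 signaling, was at 32.2, 31.8 and 35.5 CPM in shNC1 and 15.8, 15.9 and 15.1 CPM in TEX10_sh. In the other experiment it was at 40.3 and 40.4 CPM in shNC2 and 17.4 and 16.6 CPM in p65_sh. Its effects of -1.06 and -1.22 differed by 0.16 (95% confidence interval -0.01 to 0.33), which met the rule, although SOCS3 is one of the labelled genes. EGR1, an immediate early transcription factor and also a labelled gene, was at 285, 286 and 336 CPM in shNC1 and 87.00, 78.6 and 77.1 CPM in TEX10_sh. It was at 151 and 149.7 CPM in shNC2 and 61.1 and 63.7 CPM in p65_sh. DKK1, a secreted Wnt antagonist, was at 159, 155 and 173 CPM in shNC1 and 70.7, 67.4 and 72.5 CPM in TEX10_sh, and at 172 and 165 CPM in shNC2 and 48.7 and 51.8 CPM in p65_sh. No groups overlapped for these genes, but EGR1 fell further after TEX10 knockdown (-1.89 against -1.26) and DKK1 further after RELA knockdown (-1.20 against -1.74). Both differences were called, so EGR1 and DKK1 moved in the same direction in both experiments without meeting the rule on similar size.

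Genes of cholesterol and fatty acid synthesis were among the deepest shared falls. Of 42 tested members of this list, 31 were lower and 3 higher on average, that is 73.8% lower where 21.4% of all genes were, and 12 were shared falls (28.6% against 10.1%). The median average effect of the list was -0.33, against -0.0033 for all genes tested. INSIG1, which retains the SREBP complex in the endoplasmic reticulum, was at 42.5, 44.2 and 39.9 CPM in shNC1 and 21.3, 17.5 and 18.1 CPM in TEX10_sh. It was at 60.8 and 57.4 CPM in shNC2 and 20.8 and 22.1 CPM in p65_sh. Groups that do not overlap were a condition for naming INSIG1 among the largest shared falls, so their separation is not a separate result. INSIG1 had an average effect of -1.29 (95% confidence interval -1.39 to -1.19). STARD4, a sterol transport protein, had -1.22.

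The regulators themselves fell alongside these genes. SREBF2, the SREBP of cholesterol synthesis, was at 249, 249 and 253 CPM in shNC1 and 159, 152 and 147 CPM in TEX10_sh, and at 254 and 266 CPM in shNC2 and 154 and 157 CPM in p65_sh. Its effects were -0.71 and -0.74, and those of SREBF1, the SREBP of fatty acid synthesis, were -0.80 and -0.78. SCD, the stearoyl-CoA desaturase, was among the most abundant shared genes. It stood at 1366, 1402 and 1352 CPM in shNC1, 771, 753 and 713 CPM in TEX10_sh, 1182 and 1158 CPM in shNC2 and 631 and 625 CPM in p65_sh, with effects of -0.88 and -0.90. Further shared falls were ACAT2 (-0.44), DHCR7 (-0.43), FDPS (-0.39), ELOVL5 (-0.35) and EBP (-0.23), which are enzymes of these pathways. LPIN1 (-0.63), a phosphatidate phosphatase, was a shared fall as well. FDPS shares 18.6% of its exonic length with RUSC1-AS1 on the other strand. The sterol reductase TM7SF2 was the one shared rise of the list, at 0.28.

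In all, 23 of the 42 members differed between the experiments (54.8% against 20.7% of all genes), with a median TEX10 effect of -0.22 and a median RELA effect of -0.44. HMGCS1, a synthase early in cholesterol synthesis, had a TEX10 effect of -0.24 and a RELA effect of -0.74, and FASN, the fatty acid synthase, had -0.24 and -0.60. SQLE, the squalene epoxidase, showed the opposite order, with -0.46 and -0.20.

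Promoter windows from RefSeq, 250 bases before to 50 bases after the gene start, were matched by symbol for 12077 of the 17922 genes tested. They were searched on both strands for motif letters chosen after the expression values were known. The sterol response element was searched as TCACNCCAC and the CCAAT box as CCAAT. The sterol list held a CCAAT box in 21 of 33 windows (63.6%), against 36.3% of all windows, and among its shared members 9 of 11 did so. The sterol response element letters were in 1 of the 33 windows (3.03%) and in 1.09% of all windows, and the window that held them was that of SREBF2. Shown are this window (GRCh38.p14, chr22:41832855-41833154, plus strand), with the sterol response element in capitals 133 bases before the start, and that of SCD (chr10:100346983-100347282, plus strand), with its CCAAT boxes in capitals 229 and 186 bases before the start.
SREBF2: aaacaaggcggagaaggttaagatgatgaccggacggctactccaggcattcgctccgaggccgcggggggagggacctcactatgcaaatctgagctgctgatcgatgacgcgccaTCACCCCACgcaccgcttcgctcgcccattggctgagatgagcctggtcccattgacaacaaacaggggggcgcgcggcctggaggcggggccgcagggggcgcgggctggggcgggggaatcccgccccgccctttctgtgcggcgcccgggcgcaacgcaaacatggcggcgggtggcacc
SCD: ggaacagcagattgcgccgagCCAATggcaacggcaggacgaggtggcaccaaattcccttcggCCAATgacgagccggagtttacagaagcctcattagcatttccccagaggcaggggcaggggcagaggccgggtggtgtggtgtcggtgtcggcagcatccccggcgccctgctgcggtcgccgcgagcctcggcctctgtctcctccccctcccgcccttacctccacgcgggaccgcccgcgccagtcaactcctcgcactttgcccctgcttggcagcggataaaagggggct
Across all shared falls the CCAAT box was in 38.1% of windows and the sterol response element in 1.21%, close to all genes tested.

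Mitosis genes had the largest share of falls among the 25 lists. Of 52 tested members, 48 were lower and 0 higher on average by limma (92.3% against 21.4% of all genes), and 51 had negative effects in both experiments. A total of 27 were shared falls (51.9% against 10.1%), 18 differed between experiments (34.6% against 20.7%) and the median average effect was -0.33. No member was higher on average by edgeR or DESeq2 either, and none was higher at an unadjusted p under 0.05. HMMR, a spindle-associated hyaluronan receptor, was at 58.5, 63.6 and 57.5 CPM in shNC1 and 34.4, 35.05 and 32.7 CPM in TEX10_sh. It was at 102 and 102 CPM in shNC2 and 60.6 and 58.96 CPM in p65_sh, with effects of -0.80 and -0.77. The rule selects genes with similar effects, so their closeness is not a separate result. Control levels of HMMR differed between the experiments. NUF2, a kinetochore protein, was at 29.5, 32.02 and 30.6 CPM in shNC1 and 22.6, 19.5 and 19.3 CPM in TEX10_sh, and at 49.96 and 49.5 CPM in shNC2 and 35.1 and 32.3 CPM in p65_sh. Its effects were -0.58 and -0.56.

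Shared falls included genes of several steps of division. Among kinetochore and checkpoint genes were CENPH (-0.57), the motor CENPE (-0.48), the kinases TTK (-0.44) and BUB1 (-0.40) and securin, PTTG1 (-0.45). Cytokinesis genes included ANLN (-0.56) and KIF14 (-0.57). TOP2A, the topoisomerase of chromosome condensation, had effects of -0.40 and -0.41. The cyclin CCNB2 (-0.40) and the kinases CDK1 (-0.20) and AURKA (-0.26) fell less. CCNB1, the cyclin of mitotic entry, was at 165, 175 and 162 CPM in shNC1 and 125, 121 and 127 CPM in TEX10_sh, but at 222 and 211 CPM in shNC2 and 211 and 214 CPM in p65_sh, where the groups overlapped. It was called lower on average with an adjusted p of 2.95e-07 in limma without being shared. In bulk RNA, fewer cells in mitosis and less RNA per dividing cell cannot be told apart.

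DNA replication belongs to the preceding stage. Of 50 tested genes of that list, 16 were lower and 4 higher (32% and 8%, against 21.4% and 20.3% of all genes), and 6 were shared falls (12% against 10.1%), with RRM1 (-0.30), a ribonucleotide reductase subunit, and TIMELESS (-0.24), a fork protection protein, among them. MCM2, a subunit of the replicative helicase, had an average effect of -0.01 (adjusted p = 0.786 from limma). Of 28 G1 regulators 12 were higher and 3 lower (42.9% and 10.7%, against 20.3% and 21.4% of all genes). The 5 shared rises (17.9% against 9.23%) were CDC25A (0.46), CDK4 (0.35), CCNE1 (0.34), CCND3 (0.23) and E2F4 (0.22), which promote or regulate entry into S phase. CDK4 shares 43.2% of its exonic length with TSPAN31 on the other strand. The inhibitor CDKN1C (p57) was the shared fall. It was at 14.8, 13.7 and 15.3 CPM in shNC1 and 6.34, 7.11 and 6.25 CPM in TEX10_sh, and at 21.6 and 19.5 CPM in shNC2 and 10.6 and 11.1 CPM in p65_sh. Of 44 p53 target genes 34 were higher on average (77.3% against 20.3%), but 36 differed between experiments (81.8% against 20.7%) and 3 were shared rises (6.82% against 9.23%), among them TP53INP1 (0.59 and 0.54).

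The promoter windows of the mitosis list stood out by 2 motifs. The CHR, searched as TTTGAA, was in 29 of 44 windows (65.9%) against 9.75% of all windows, and the CCAAT box was in 32 (72.7%) against 36.3%. Among the shared members 17 of 23 windows held the CHR letters. The shared falls as a whole had them in 10.8% of windows, close to the share of all windows. The window of HMMR (GRCh38.p14, chr5:163460382-163460681, plus strand) carries the CHR letters in tandem, in capitals, from 28 and 22 bases before the start. That of TOP2A (chr17:40417847-40418146, minus strand) carries them 194 and 151 bases before it.
HMMR: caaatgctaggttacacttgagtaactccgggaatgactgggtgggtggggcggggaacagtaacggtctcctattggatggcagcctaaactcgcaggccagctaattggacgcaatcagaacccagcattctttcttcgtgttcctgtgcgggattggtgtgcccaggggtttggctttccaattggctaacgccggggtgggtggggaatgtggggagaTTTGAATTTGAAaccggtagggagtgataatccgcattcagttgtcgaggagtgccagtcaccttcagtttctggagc
TOP2A: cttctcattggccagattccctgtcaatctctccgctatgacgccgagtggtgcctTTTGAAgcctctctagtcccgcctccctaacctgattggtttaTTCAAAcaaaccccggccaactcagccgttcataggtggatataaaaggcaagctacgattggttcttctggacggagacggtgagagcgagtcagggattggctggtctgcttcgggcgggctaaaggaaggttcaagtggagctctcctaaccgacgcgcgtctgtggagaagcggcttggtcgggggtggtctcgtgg
BUB1 and CENPE, which also fell in both experiments, did not have the exact letters TTTGAA in their windows. Other forms of the element were not searched, so a CHR in these windows is not excluded.

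**Figure D2:**
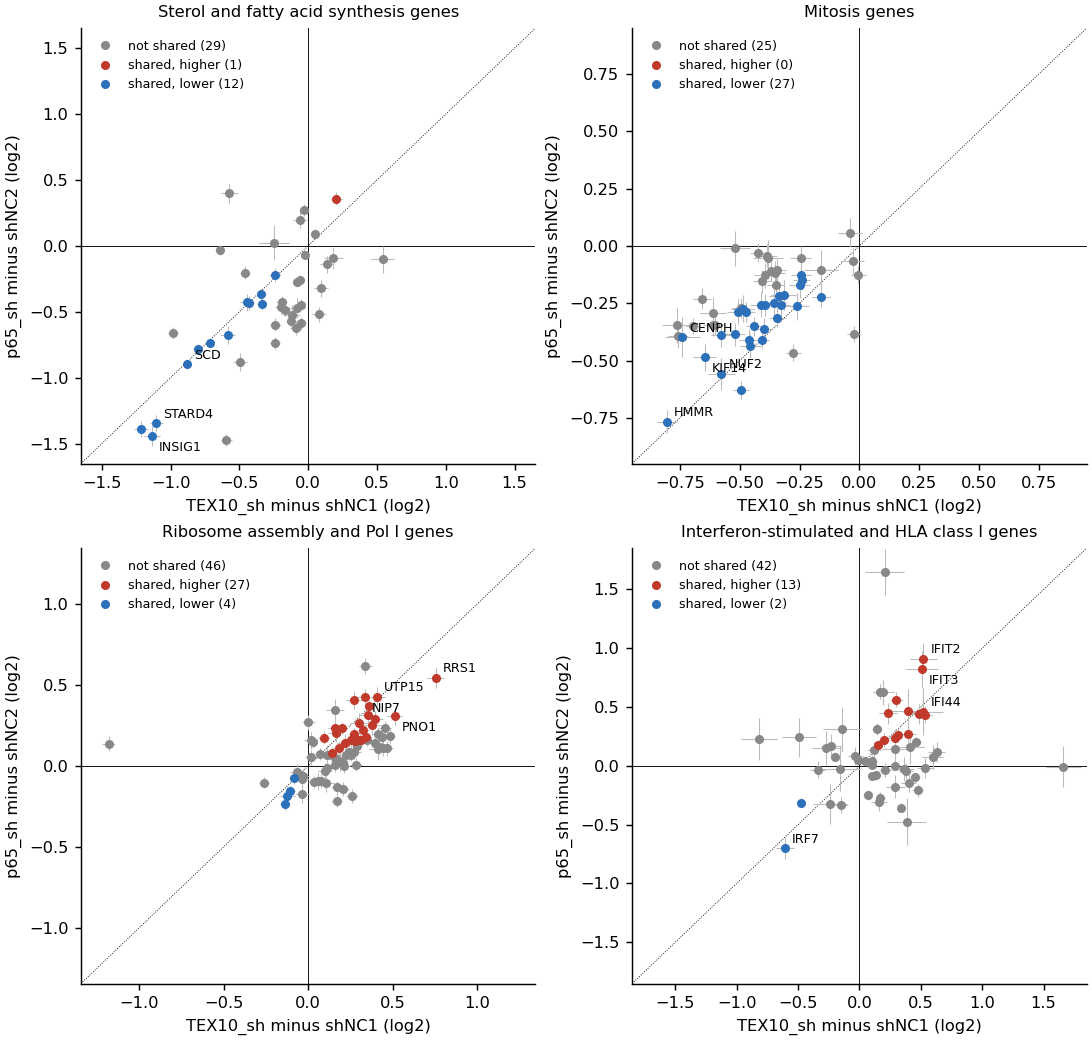
Each panel plots the TEX10 effect (horizontal, log2) against the RELA effect (vertical, log2) of the tested members of a list, with bars for the standard error and a dotted line where both are equal. Shared members are red or blue, and up to 4 of those with the largest average effect are named. Mitosis genes lie almost wholly in the lower left, and ribosome assembly genes mostly in the upper right, apart from TEX10 itself at the far left.

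Most genes for ribosome assembly and RNA polymerase I were higher on average. Of 77 tested, 49 were higher, 6 lower, TEX10 itself among them, and 22 not called (63.6% higher where 20.3% of all genes were), and 27 were shared rises (35.1% against 9.23%) and 4 shared falls. The median average effect was 0.16. RRS1, a factor of large subunit assembly, was at 44.1, 44.5 and 40.6 CPM in shNC1 and 68.8, 76.2 and 74.4 CPM in TEX10_sh, and at 36.8 and 41.9 CPM in shNC2 and 58.2 and 56.8 CPM in p65_sh. Its effects were 0.76 and 0.54, with no overlap of groups. POLR1A and POLR1B, the large subunits of RNA polymerase I, had average effects of 0.37 and 0.34. Factors of the small subunit processome such as UTP15 (0.42) and MPHOSPH10 (0.34) and the assembly factors PNO1 (0.41) and NIP7 (0.38) rose likewise. NOP56, a core protein of box C/D particles, had 0.29 and 0.12 and missed the ratio.

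The partners of TEX10 in its complex moved little and not in one direction. SENP3 was a shared rise at 0.20, LAS1L a shared fall at -0.15, and PELP1 stood at 0.09 without being called. NPM1, an abundant nucleolar chaperone, was a shared fall at -0.13. Of 77 cytosolic ribosomal protein genes 32 were higher and 2 lower, and 15 were shared rises (19.5% against 9.23%), at a median average effect of 0.06. RPS12 had the effects 0.24 and 0.33. The sizes are small, and many ribosomal protein genes have near-identical processed copies that can take their reads. Without p65_sh replicate 2 the shared rises of the list numbered 9, where those of all genes numbered 1487.

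GPATCH4, a nucleolar protein and outside the lists, was one of the leading shared rises. It was at 40.1, 46.9 and 37.6 CPM in shNC1 and 81.1, 86.7 and 83.1 CPM in TEX10_sh. In the RELA experiment it was at 30.9 and 32.1 CPM in shNC2 and 55.00 and 55.3 CPM in p65_sh, giving an average effect of 0.90.

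Part of the interferon-stimulated genes rose. Of 57 tested members of the list, which includes HLA class I genes, 26 were higher and 5 lower on average (45.6% against 20.3%), 26 were not called and 21 differed between experiments (36.8% against 20.7%), with 13 shared rises (22.8% against 9.23%) and 2 shared falls. IFIT2, an antiviral RNA-binding protein, was at 2.15, 2.35 and 2.15 CPM in shNC1 and 3.48, 3.53 and 3.18 CPM in TEX10_sh, and at 1.34 and 1.41 CPM in shNC2 and 2.97 and 3.08 CPM in p65_sh. IFIT3, its partner, was at 1.43, 1.47 and 1.10 CPM in shNC1 and 2.09, 2.09 and 2.13 CPM in TEX10_sh, and at 0.946 and 0.950 CPM in shNC2 and 1.88 and 2.24 CPM in p65_sh. Knockdown libraries lay above control libraries throughout. IFIT5 (0.48), NLRC5 (0.46), a transactivator of HLA class I genes, UBE2L6 (0.43), the ISG15-conjugating enzyme, and the RNA sensor DDX58 (0.33) were further shared rises.

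Other well-known members were not among the shared rises. ISG15, a ubiquitin-like modifier, had effects of 0.48 and -0.21, and HLA-B of 0.14 and -0.08. The shared falls were IRF7 and HLA-E. IRF7, the master factor of interferon induction, was at 11.98, 12.6 and 14.01 CPM in shNC1, 8.63, 7.53 and 8.65 CPM in TEX10_sh, 17.98 and 17.98 CPM in shNC2 and 11.5 and 10.3 CPM in p65_sh. HLA-E, a ligand of natural killer cell receptors, had effects of -0.47 and -0.31.

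The interferon response element, searched as GAAANNGAA, was in 28 of 46 promoter windows of this list (60.9%) against 6.21% of all windows. Among its shared members 5 of 11 windows held it. In all shared rises it was in 6.73% of windows. The window of IFIT3 (GRCh38.p14, chr10:89327747-89328046, plus strand) is shown with its matches in capitals, read on the other strand, 155 and 121 bases before the start.
IFIT3: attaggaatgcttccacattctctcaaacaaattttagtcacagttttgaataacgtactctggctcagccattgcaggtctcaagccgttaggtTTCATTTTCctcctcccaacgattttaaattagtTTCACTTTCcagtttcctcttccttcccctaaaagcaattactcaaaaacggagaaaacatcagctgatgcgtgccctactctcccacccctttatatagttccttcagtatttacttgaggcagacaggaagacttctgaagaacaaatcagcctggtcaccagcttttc
The letters of a kB site, searched as GGANTTTCC, were in 1.55% of all windows, 1.36% of those of shared falls and 1.47% of those of shared rises, and those of an AP-1 site, TGANTCA, in 4.84%, 3.47% and 4.87%. The letters of an E-box, CACGTG, were in 9.88% of all windows, 11.1% of those of shared falls and 11.5% of those of shared rises. A match of letters describes these windows alone.

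Wnt pathway genes leaned to falls. Of 29 tested, 14 were lower and 7 higher (48.3% and 24.1%, against 21.4% and 20.3% of all genes), and 10 were shared falls (34.5% against 10.1%). The median average effect of the list was -0.07. The ligand WNT11 was at 3.35, 3.16 and 3.67 CPM in shNC1 and 1.71, 1.83 and 1.48 CPM in TEX10_sh, and at 3.43 and 3.77 CPM in shNC2 and 1.14 and 1.96 CPM in p65_sh, where the knockdown libraries were far apart. WNT6, another ligand, had effects of -0.97 and -0.53. The secreted inhibitor NOTUM was at 34.9, 33.8 and 35.8 CPM in shNC1 and 22.00, 21.8 and 21.7 CPM in TEX10_sh, and at 22.8 and 26.2 CPM in shNC2 and 10.6 and 16.1 CPM in p65_sh. NKD1 (-0.43), a cytoplasmic inhibitor, the receptors FZD7 (-0.40) and TNFRSF19 (-0.65) and the progenitor factor SOX9 (-0.28) fell too. The list mixes activators, inhibitors and targets, and AXIN2, a direct target of β-catenin, was instead at 0.31 and 0.14. BMP4 was a shared rise, from 143, 139.8 and 133 CPM in shNC1 to 193, 189.7 and 193 CPM in TEX10_sh and from 125 and 131 CPM in shNC2 to 189 and 191 CPM in p65_sh.

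Growth factor and cytokine signaling showed shared falls besides the labelled genes. Of 50 tested ERK feedback and response genes 25 were lower and 12 higher (50% and 24%, against 21.4% and 20.3% of all genes) and 28 differed between experiments (56% against 20.7%). A total of 10 were shared falls (20% against 10.1%), which numbered 6 with DESeq2 and 6 without shNC1 replicate 3. ETV4, an ETS factor downstream of ERK, had effects of -0.52 and -0.31, and the chromatin protein HMGA1, at 945 CPM or more in every library, had -0.45 and -0.31. The ERK phosphatase DUSP6 fell in both experiments but differed between them (-0.67 and -0.39). Among 20 tested members of the STAT3 list, after 5 labelled members were left out, 11 were lower and 5 higher (55% and 25%, against 21.4% and 20.3% of all genes) and 4 were shared falls (20% against 10.1%). They were BCL3 (-0.82), an atypical IκB protein, LIFR (-0.77), a cytokine receptor, and the kinases PIM1 (-0.55) and PIM3 (-0.44). LIFR was at 51.1, 45.3 and 51.5 CPM in shNC1 and 28.8, 25.6 and 25.9 CPM in TEX10_sh, and at 58.2 and 59.5 CPM in shNC2 and 38.3 and 35.6 CPM in p65_sh. SOCS1 went against SOCS3, as a shared rise from 3.89, 4.37 and 3.10 CPM to 6.68, 6.10 and 6.97 CPM in the TEX10 experiment and from 3.82 and 4.01 CPM to 6.83 and 6.66 CPM in the RELA experiment.

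Outside its labelled members the NF-κB list was close to all genes tested in its average and shared counts. The 7 labelled members left out were shown by the study as lower after TEX10 knockdown, so these counts leave falls out. Of 37 tested members 10 were higher and 7 lower (27.0% and 18.9%, beside 20.3% and 21.4% of all genes), RELA itself among the lower ones, with 3 shared rises and 4 shared falls (8.11% and 10.8%, beside 9.23% and 10.1%). The falls were BCL3, the nuclear regulator NFKBIZ (-0.53), the adhesion molecule ICAM1 (-0.32) and LTB (-0.43), and the rises NFKBIE (0.23), TNFAIP2 (0.29) and PLAU (0.44). NFKBIA, the IκB alpha gene, stood at -0.09 (adjusted p = 0.146 from limma). In all, 13 of the 37 members differed between experiments (35.1% against 20.7% of all genes). The TEX10 effect was called higher for 13 and lower for 6, and the RELA effect higher for 5 and lower for 10. The 52 labelled genes were chosen by the study on the TEX10 libraries, so that 50 of them were lower on average is not independent evidence.

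Lysosomal genes split. Of 58 tested, 10 were shared rises (17.2% against 9.23%) and 6 shared falls (10.3% against 10.1%). ATP6V0D1, a subunit of the proton pump, was a shared rise at 0.59. The cholesterol exporter NPC1 (-0.47) and the protease CTSB (-0.44) fell. Stress genes often differed between the experiments. Among 47 ATF4 and CHOP genes 35 differed between experiments (74.5% against 20.7% of all genes), with a median TEX10 effect of -0.48 and a median RELA effect of 0.22. The list held 1 shared rise (2.13% against 9.23%) and 3 shared falls (6.38% against 10.1%). DDIT4, an inhibitor of mTORC1, was one of the falls, at 183, 159 and 259 CPM in shNC1 and 105, 98.4 and 94.04 CPM in TEX10_sh, and at 269.8 and 287 CPM in shNC2 and 162 and 161 CPM in p65_sh. Of 52 glycolysis and hypoxia genes 33 were lower on average (63.5% against 21.4%) but 33 differed between experiments (63.5% against 20.7%), and 7 were shared falls (13.5% against 10.1%), among them ALDOC (-0.57) and VEGFA (-0.21).

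The remaining lists held shared members in small numbers, beside 9.23% shared rises and 10.1% shared falls of all genes tested. BMP and TGF-beta response genes had 1 shared rise and 5 shared falls of 30 (3.33% and 16.7%), YAP and TEAD targets 1 and 5 of 25 (4% and 20%), and actin cytoskeleton genes 2 and 6 of 41 (4.88% and 14.6%), with the myosin light chain MYL12A at -0.65. Unfolded protein response genes had 3 and 3 of 33 (9.09% each), and HSPA5, the chaperone of that response, was at -0.00 (adjusted p = 0.949 from limma). Epithelial mesenchymal transition and matrix genes had 3 and 7 of 62 (4.84% and 11.3%), keratins and intestinal genes 2 and 2 of 25 (8% each), and NRF2 targets 2 and 2 of 34 (5.88% each). Respiratory chain genes had 4 and 5 of 51 (7.84% and 9.80%), chromatin regulators 4 and 6 of 56 (7.14% and 10.7%), and markers of other cells 1 and 1 of 9 (11.1% each).

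The leading shared genes by size came from several of these groups and from outside them. Besides INSIG1 and STARD4, they included the falls of OLFM1 (-1.13), PTP4A3 (-1.08), FOXL1 (-1.07), ADAMTS2 (-1.05), RNF165 (-1.03) and LOXL2 (-0.99). LOXL2, a collagen cross-linking enzyme, was at 49.9, 48.4 and 53.2 CPM in shNC1 and 26.4, 24.8 and 23.99 CPM in TEX10_sh, and at 70.8 and 78.5 CPM in shNC2 and 38.8 and 35.9 CPM in p65_sh. TGM2 (-0.97), a transglutaminase, CLMN (-0.93), the clock repressor PER1 (-0.91) and PDE2A (-0.91), a phosphodiesterase, were also among them, with CDKN1C and SLX1B (-0.91), of which SLX1B has a near-identical copy and overlaps BOLA2. PER1 was at 106, 102 and 117 CPM in shNC1 and 62.5, 59.3 and 59.1 CPM in TEX10_sh, and at 147 and 162 CPM in shNC2 and 76.9 and 78.9 CPM in p65_sh.

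HIST1H2BD, a histone H2B gene, led the rises among genes averaging 5 CPM or more. It was at 3.03, 2.46 and 3.37 CPM in shNC1 and 8.70, 9.14 and 10.5 CPM in TEX10_sh, and at 4.37 and 3.66 CPM in shNC2 and 9.02 and 7.33 CPM in p65_sh. PROM2, a membrane protein of epithelial protrusions, was at 9.17, 7.76 and 9.39 CPM in shNC1 and 18.3, 19.2 and 19.3 CPM in TEX10_sh, and at 7.93 and 6.51 CPM in shNC2 and 13.9 and 13.6 CPM in p65_sh. Every knockdown library lay above every control library of its experiment in both genes, which was a condition for naming the leading rises. The endocytic adaptor EPN3 (0.96), the chondroitin polymerizing factor CHPF2 (0.90), SDSL (0.89), heme oxygenase HMOX1 (0.87), the kinase SYK (0.87), CNTN1 (0.84) and ANK2 (0.79) followed, with the noncoding AC159540 (0.91). HMOX1 was at 20.2, 21.6 and 22.4 CPM in shNC1 and 43.4, 40.6 and 40.7 CPM in TEX10_sh, and at 20.9 and 20.7 CPM in shNC2 and 35.1 and 37.9 CPM in p65_sh. C19orf82 (0.81), EME2 (0.79), ZACN (0.78) and THTPA (0.78) share 52.8%, 30%, 61.5% and 54.5% of their exonic length with ZNF562, SPSB3, EXOC7 and RP11-66N24, and reads from the exons they share may be counted for either gene. RP11-66N24 lies on the same strand as THTPA and the others on the opposite strand. EXOC7 itself rose by 0.57 on average.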

How the data were processed

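RNA of HCT116 cells was captured as mRNA and sequenced in 10 libraries, with groups taken from the sample titles. The authors deposited CPM values for 57820 genes, scaled by a factor for each library. Per the submitters' processing notes, STAR 2.4.2a, RSEM 1.2.29, edgeR 3.8.5 and genome build hg19 were used. Divided by the value of 1 read, 100% of the values came within 0.01 of whole reads, so reads were recovered. A count of 0 allows up to 3 reads, or 0.0678 to 0.105 CPM by library, for counting error only.

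Reads of all 10 libraries were scaled together by TMM (edgeR 4.0.16), filtered by filterByExpr (minimum count 10, total 15) and tested by limma-trend (limma 3.58.1, R 4.3.3) on log2(CPM + 0.5), a scale that shrinks changes of low genes, with a mean for each group. Contrasts were the average effect, each knockdown effect and their difference, with Benjamini-Hochberg adjustment over 17922 genes and a threshold of 0.01. Confidence intervals are those of the fit at 95%, without adjustment. The members, the 25 gene lists and the motifs were chosen with earlier results of these data known. Lists are described by counts beside those of all genes tested, and shared genes by their values alone, since the rule used their contrasts. A list member is counted once and labelled members are left out. Lengths, overlaps of exons and gene types came from GENCODE v29, matched by gene ID for 96.4% of genes tested, and no strand-specific protocol is stated, so overlapping genes are uncertain.

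The genes named were TEX10 and RELA, EGR1, DKK1 and SOCS3, 1 core gene for each list, the 15 largest shared falls and rises with a mean of at least 5 CPM and groups that do not overlap, and up to 2 further shared members for each list. Other genes named with their lists, such as SREBF1, SREBF2, FDPS, TOP2A, BUB1, NUF2, NLRC5, IFIT2, IFIT3, WNT11, NOTUM, PIM1, SOCS1 and PER3, were chosen after their values were seen. Some genes that the rule would name are not reported here.

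Alternatives were other pseudocounts, filters, scalings and thresholds, the deposited CPM, edgeR, DESeq2 1.42.0, a single knockdown term, a replicate block, each library left out in turn and other rules for shared genes. On simulated data (17922 genes) the average contrast called 54% of 50 genes changed by 1.2-fold, 62% at 1.5-fold, 82% at 2-fold and 96% at 4-fold, and 6 calls (3.92%) were false.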

Additional observations from a re-analysis of the deposited data

Results flagged for a closer look

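For 13 of the named genes the TEX10 effect and the RELA effect differed (adjusted p under 0.01 for the difference in limma, where 20.7% of all genes tested passed). The difference is the TEX10 effect minus the RELA effect on the log2 scale. It was -1.32 for TEX10 and 1.42 for RELA, the targets themselves. Among the proposed marks of the shared response, EGR1 differed by -0.64 and DKK1 by 0.53, and every knockdown library of both genes still lay below every control library of its experiment. DUSP6 differed by -0.29, and its fall was deeper after TEX10 knockdown. In the cell cycle, CDKN1A differed by 1.39, CCND1 by 0.40 and CCNB1 by -0.39. CDKN1A and CCND1 rose in both experiments, more after TEX10 knockdown. ID1, a target of BMP signaling, differed by 0.37. ATF4 differed by -0.81 and moved in opposite directions, at -0.48 after TEX10 knockdown and 0.33 after RELA knockdown. KRT20, an intestinal keratin at about 1 CPM, differed by -0.95, NQO1, a target of NRF2, by -0.36, and the lysosomal membrane gene LAMP1 by -0.32. With 2 or 3 libraries in a group, single libraries were not tested for standing apart.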

How the results depend on the processing

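The counts of shared genes moved most with the rule. With the smaller effect at 2/3 of the larger or more there were 1077 rises and 1186 falls, with each effect called in its own comparison 966 and 1079, and with an average of at least 1.5-fold 123 and 233. A single knockdown term, with the experiment as a covariate, called 2307 genes higher and 2488 lower on average. Leaving out each library in turn gave 3222 to 3608 higher and 3337 to 3719 lower on average, and 1487 to 1650 shared rises and 1617 to 1753 shared falls. Among the fits that kept the rule, the fewest of the 3436 shared genes were recovered without p65_sh replicate 2, at 2746 (79.9%). In the other alternatives these counts stayed within 1.5 times the main ones. Scaling moved the median average effect of all genes by less than 0.01. Among the genes chosen by the naming rule, the call on the average was lost in 8 settings for NDUFS1, 5 for LYZ, 1 for EZH2 and 1 for TEX10 (the single knockdown term), and gained in 3 for ATF4 and 1 for KRT20. DESeq2 gave no adjusted p for LYZ. In addition, 2 genes near 0 changed sign. MCM2 ran from -0.047 to 0.024 as single libraries were left out. HSPA5 ran from -0.0085 to 0.0066 in the same way and was at 0.0067 with CPM as deposited. The replicate numbers did not pair the libraries, since deviations of libraries with the same number correlated at -0.012 to 0.037. With the replicate number as a block, 1667 genes were shared rises and 1762 shared falls, and 3356 of the 3436 remained. Depth limits genes near 1 CPM, such as IFI44 and OAS1. The cause of these shifts was not tested beyond what each alternative changes.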

Other observations

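Gene groups chosen after the values were seen add detail on the shared response and are given as values. Of 21 circadian clock genes, 11 were lower and 2 higher on average (52.4% lower beside 21.4% of all genes), and 4 were shared falls and 2 shared rises (19.1% and 9.52%, beside 10.1% and 9.23%). Besides PER1, the falls were PER3, another period gene, at 17.6, 16.8 and 15.4 CPM in shNC1, 10.97, 12.2 and 11.2 CPM in TEX10_sh, 16.6 and 16.01 CPM in shNC2 and 11.1 and 11.8 CPM in p65_sh, the repressor CRY2 (-0.32) and the clock output factor HLF (-0.81). ARNTL, the partner of CLOCK, was a shared rise at 0.31.

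Of 29 tested replication histone genes, 10 were higher (34.5% against 20.3%) and 0 lower on average by limma, with 1 lower at an unadjusted p under 0.05, and edgeR and DESeq2 called 0 lower. The 3 shared rises (10.3% against 9.23%) were HIST1H2BD, HIST2H2BE (0.83) and HIST2H4B (1.15), which has a near-identical copy, and the last pair lay under 2.5 CPM in every group mean. Most of these transcripts lack a poly(A) tail and the libraries were made from captured mRNA. Of 403 zinc finger genes 52 were shared rises (12.9% against 9.23%) and 26 shared falls (6.45% against 10.1%), and 97 differed between the experiments (24.1% against 20.7%).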
